A study of Homo sapiens with 4 samples.

Results

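The integrin and laminin subunit genes were examined in U87 cells with and without knockdown of PTPRN. Genes were taken by name from the deposited table, as the symbols that start with ITGA or ITGB and the laminin chain symbols LAMA, LAMB or LAMC followed by a digit. Symbols containing BP, which belong to integrin-binding proteins, were left out (3 genes). This gave 39 of the 19314 genes listed, and all 39 were among the 16595 genes with a value. Of the 39 genes, 18 encode integrin alpha subunits, 8 encode integrin beta subunits and 12 encode laminin chains, namely 5 alpha, 4 beta and 3 gamma chains. The remaining gene, ITGBL1, was taken by its name and encodes a secreted protein related to integrin beta subunits that is not itself a receptor subunit.

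U87 is an established human malignant glioma cell line. RNA was sequenced in 4 libraries, 2 labelled PTP2 with the genotype PTPRN knockdown and 2 labelled SCR. The study knocked PTPRN down with short hairpin RNAs from the pLKO.1 vector and lists a scrambled hairpin as control. Its sequencing methods name only U87 cells and PTPRN knockdown U87 cells. That the SCR libraries carry the scrambled hairpin is therefore read from their titles. The labels name only 1 knockdown, PTP2, without its hairpin, so hairpins cannot be compared. They do not say whether the libraries of a group came from separate cultures, so p-values measure the spread between these libraries alone. The cell line is U87 by its label, but the growth protocol of the same records describes hCMEC/D3, a line of brain endothelium. Of the 10 glial and glioma line markers examined, VIM (1918 to 4766 FPKM) and CD44 (151.6 to 315.8) were abundant and NES was at 3.12 to 14.2, while GFAP (0.55 at most), SOX2 (0.27 at most) and S100B (0.05 at most) were nearly absent, and AQP4 had no value. The summed level of the 9 glial and glioma line markers with a value was 4912 to 5117 FPKM with PTP2 and 2173 to 2257 with SCR. Most of this sum was VIM alone (mean 4665 with PTP2 and 1958 with SCR). Of the 9 markers, 3 rose, namely VIM, CD44 and OLIG2 (1.15 and 0.91 FPKM with PTP2, 0.54 and 0.50 with SCR). Another 3 fell, namely NES, GFAP and CHI3L1 (31.0 and 29.7 FPKM with PTP2, 93.5 and 87.9 with SCR). Of the 10 endothelial markers, CDH5 and CLDN5 stayed at or below 0.03 FPKM and PECAM1 was the highest (2.50 at most). PECAM1 and VWF (0.06 and 0.05 FPKM with PTP2, 0.98 and 0.93 with SCR) fell, while TEK, KDR (0.87 and 0.85 against 0.36 and 0.32) and ERG (0.68 and 0.94 against 0.07 in both) rose. By the same test, given below, 57.9% of all genes rose or fell, beside 6 of the 9 glial and 5 of the 10 endothelial markers.

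Integrins are receptors on the cell surface made of 1 alpha and 1 beta subunit, which bind the extracellular matrix outside the cell and link it to the actin cytoskeleton inside through adaptor proteins such as talin and kindlin. The alpha subunit largely sets the ligand, and ITGB1 pairs with most alpha subunits. Laminins are matrix glycoproteins built from 1 alpha, 1 beta and 1 gamma chain, and they are named by the numbers of those chains, as in laminin-332. They assemble into basement membranes and are bound by integrins such as alpha-3 beta-1 and alpha-6 beta-1. In glioma, integrins and laminins are known for their part in adhesion to vessels and migration through brain.

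Levels are given as FPKM, fragments per length of transcript and per mapped fragments of the library. The unit is scaled for transcript length and depth but does not even out all differences between libraries. The summed FPKM was 444265 and 438504 with PTP2 and 424645 and 419861 with SCR. Changes are given as the log2 fold change of FPKM + 1, PTP2 minus SCR, with its standard error (SE), from a limma fit across all 16595 genes with Benjamini-Hochberg adjustment. Here a gene rose or fell where the adjusted p was at most 0.05, and was differential where the fold change on that scale was also at least 2 and the adjusted p at most 0.001. The low FPKM values of 338 to 360 genes with 1 transcript lay on steps worth 1 read (78.6 to 83.5% within 0.1 read of a whole number), which placed the libraries at about 17700000 to 19200000 reads. PTPRN had 12.1 and 11.7 FPKM in the PTP2 libraries and 84.8 and 85.0 FPKM in the SCR libraries (log2 fold change -2.74, SE 0.033, adjusted p = 0.000148, limma).

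The integrin and laminin transcripts of PTP2 cells were lower in most of the highly expressed subunits and higher in a smaller group. ITGA3, ITGA5, ITGB1 and LAMC1, the 4 most abundant members in SCR cells, all fell. ITGA2, ITGB3 and LAMA3 rose. Among all 39 members, 27 passed an adjusted p of 0.05 (69.2%), against 57.9% of all genes tested. Of these, 17 fell (43.6%) and 10 rose (25.6%), where 27.1% of all genes tested fell and 30.8% rose. Differential members numbered 11 (28.2%), of which 8 were lower and 3 higher. Over all genes 6.69% were differential, 4.06% lower and 2.63% higher. The median log2 fold change was -0.04 over the 39 members and 0.01 over all genes. It was -0.29 and 0.03 with a pseudocount of 0.1, and -0.43 and 0.06 among genes with at least 1 FPKM in 2 or more libraries, a filter that genes high in 1 group alone also pass. The values of the groups did not overlap in 32 members (82.1%), against 75.6% of all genes. The differential calls needed all 4 libraries, and none remained in limma with any 1 library left out. None remained either with a pseudocount of 0.1 or with a replicate block (0 genes of the whole table). There, 28 and 27 members had an unadjusted p under 0.05, beside 10185 and 10108 of all 16595 genes. At an adjusted p of 0.05, fewer members and fewer genes of the whole table passed with 1 library left out than with all 4. In bulk RNA, fewer cells of a kind and less RNA per cell cannot be told apart.

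**Figure D1:**
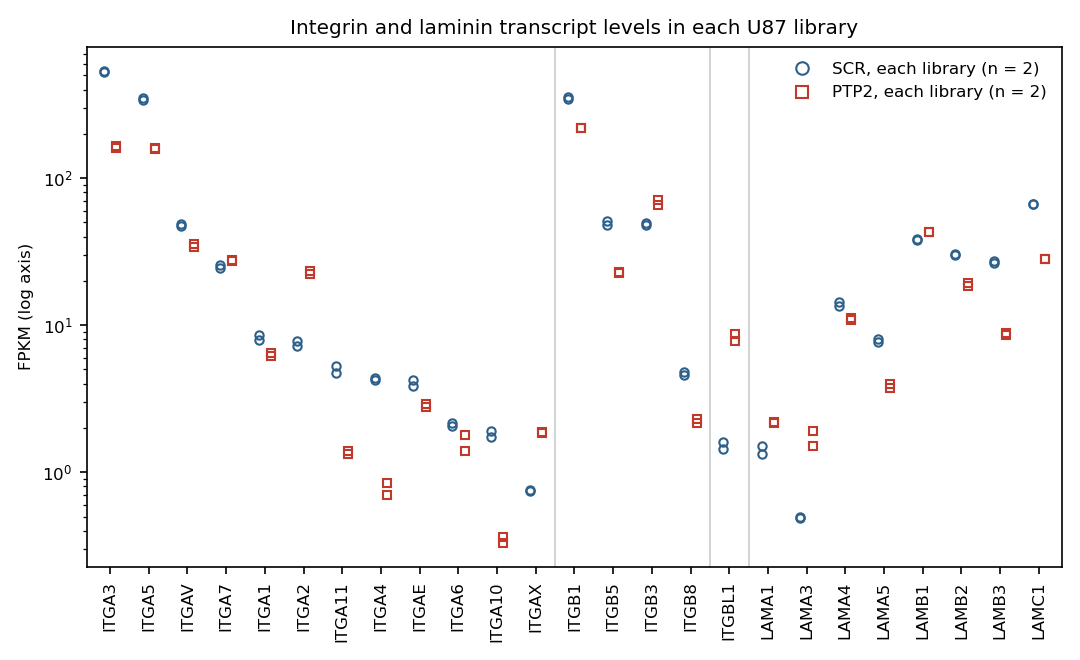
FPKM (log axis) of 25 of the 26 members with a mean of at least 1 FPKM in the higher group, with a circle for each of the 2 SCR libraries and a square for each of the 2 PTP2 libraries. Integrin alpha, integrin beta, ITGBL1 and laminin genes are set apart by vertical lines, and the replicates of a group lie close together beside the gap between groups for most genes, ITGA3 for example at 530.0 and 538.9 against 159.7 and 166.0.

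The laminin-binding alpha subunits were led by ITGA3, the alpha-3 subunit, which pairs with ITGB1. ITGA3 had 159.7 and 166.0 FPKM in the PTP2 libraries and 538.9 and 530.0 FPKM in the SCR libraries. The groups did not overlap, the mean was 3.28-fold lower with PTP2, and the log2 fold change was -1.71 (SE 0.036, adjusted p = 0.000239, limma). In SCR cells its mean level lay above 99.5% of all genes tested, and in PTP2 cells above 97.6%. ITGA7, the alpha-7 subunit best known from muscle, had 27.4 and 27.7 FPKM with PTP2 and 25.6 and 24.4 with SCR. The PTP2 libraries were slightly the higher ones (log2 fold change 0.14, SE 0.037, adjusted p = 0.0423), and this call was lost under 8 of 12 alternatives. These were without PTP2 replicate 1 (adjusted p = 0.157), PTP2 replicate 2 (0.176) or SCR replicate 2 (0.0727), a pseudocount of 0.1 (0.0839), the replicate block (0.0779), removal of the length trend (0.0731), quantile normalization (log2 fold change 0.08, adjusted p = 0.141) and median-ratio scaling of the libraries (0.06, 0.248). ITGA6, a laminin receptor subunit that marks many stem and progenitor cells, was weakly expressed at 1.40 and 1.78 FPKM with PTP2 and 2.16 and 2.05 with SCR. Its log2 fold change of -0.27 (SE 0.085) did not pass the test (adjusted p = 0.0645). It passed under 5 of 12 alternatives, namely without PTP2 replicate 2 (log2 fold change -0.37, adjusted p = 0.0415), with a minimum of 1 FPKM (0.0179), with median-ratio scaling (0.0387), and with the length trend (0.0301) or the length and GC trends (0.016) removed. ITGB4, the beta partner of ITGA6 in hemidesmosomes, had 0.16 and 0.07 FPKM with PTP2 and 0.45 and 0.31 with SCR, or about 7 to 52 reads. It fell (log2 fold change -0.31, SE 0.074, adjusted p = 0.0311), but the call was lost whichever library was left out (adjusted p 0.0968 to 0.199) and with the length and GC trends removed (log2 fold change -0.16, adjusted p = 0.116).

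All 4 collagen-binding alpha subunits passed the test, 3 lower and 1 higher. Among all genes with a mean of at least 1 FPKM in the higher group, as these 4 had, 74.8% passed. ITGA2, the alpha-2 subunit, had 22.3 and 23.4 FPKM in the PTP2 libraries against 7.23 and 7.78 in the SCR libraries. It was 3.04-fold higher (log2 fold change 1.49, SE 0.05, adjusted p = 0.000378, limma), the largest rise of any integrin subunit here. ITGA1, the alpha-1 subunit, had 6.18 and 6.49 FPKM with PTP2 and 7.93 and 8.59 with SCR. It fell (log2 fold change -0.34, SE 0.052, adjusted p = 0.00925), although not without PTP2 replicate 1 (adjusted p = 0.102), PTP2 replicate 2 (0.0814) or SCR replicate 2 (0.0672). ITGA11, a receptor for fibrillar collagen typical of mesenchymal cells, had 1.39 and 1.33 FPKM with PTP2 and 5.25 and 4.73 with SCR (log2 fold change -1.34, SE 0.055, adjusted p = 0.000485). ITGA10, known from cartilage, had 0.36 and 0.33 FPKM with PTP2 and 1.75 and 1.90 with SCR, about 31 to 34 reads against 176 in each SCR library. Its log2 fold change was -1.07 (SE 0.041, adjusted p = 0.000445), and with a pseudocount of 0.1 it was -2.11. In each of these genes the libraries of the groups did not overlap, as in 89.3% of all genes with a mean of at least 1 FPKM in the higher group.

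ITGA1 and ITGA2 lie beside each other on chromosome 5 (GRCh38), ITGA1 from 52788302 to 52953655 and ITGA2 from 52989326 to 53094779, both on the plus strand and 35.7 kb apart. The level of ITGA2 relative to ITGA1 in the same library was 3.61 and 3.6 with PTP2 and 0.912 and 0.906 with SCR. This ratio does not depend on the scaling of the libraries, and its replicates differed by far less than the groups did. An exact permutation test of 2 libraries against 2 gives p = 0.33 here (two-sided), which is the smallest value that design allows, and the same holds for each ratio and share given further on unless another p is printed.

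The bases before the RefSeq start of ITGA2 are shown as the promoter of the integrin subunit that rose most, with those of LAMC1, the laminin chain that fell from the highest level. The windows are taken from RefSeq on GRCh38.p14, and 27 of the 39 members had such a window, while ITGA3 had none. Capitals mark the GC box letters GGGCGG on either strand.
ITGA2, chr5:52989102-52989325, plus strand: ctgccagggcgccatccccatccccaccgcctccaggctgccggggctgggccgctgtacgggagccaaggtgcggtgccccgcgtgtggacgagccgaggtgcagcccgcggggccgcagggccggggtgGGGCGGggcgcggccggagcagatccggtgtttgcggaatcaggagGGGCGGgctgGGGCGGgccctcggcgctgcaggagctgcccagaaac
LAMC1, chr1:183023170-183023419, plus strand: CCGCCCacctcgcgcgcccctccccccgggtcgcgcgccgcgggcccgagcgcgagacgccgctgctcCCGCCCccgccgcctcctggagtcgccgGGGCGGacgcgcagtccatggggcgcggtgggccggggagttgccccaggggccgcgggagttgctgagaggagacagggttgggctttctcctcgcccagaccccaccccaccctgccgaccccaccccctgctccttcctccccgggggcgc
Both windows are rich in G and C (76.4% over the 250 bases before the start of ITGA2 and 79.6% before that of LAMC1) and both hold GC boxes. ITGA2 rose and LAMC1 fell, and the part of GC boxes in either change was not tested. GC box letters were found in 42.6% of all 35116 windows of 250 bases and in 18 of the 34 windows of members (52.9%).

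The subunits that recognise the RGD tripeptide of fibronectin and vitronectin were ITGA5 and ITGAV. ITGA5, the alpha-5 subunit of the main fibronectin receptor, had 158.8 and 159.5 FPKM with PTP2 and 348.4 and 342.7 with SCR. It was 2.17-fold lower with no overlap between groups (log2 fold change -1.11, SE 0.029, adjusted p = 0.000298, limma). ITGAV, the alpha-v subunit shared by several beta partners, had 33.8 and 35.4 FPKM with PTP2 and 47.6 and 49.01 with SCR (log2 fold change -0.47, SE 0.04, adjusted p = 0.00188). The other members of this class, ITGA8 and the platelet subunit ITGA2B, stayed at or below 0.11 FPKM in every library, at most about 14 reads. ITGA4, the alpha-4 subunit of receptors for VCAM1 and fibronectin, had 0.70 and 0.84 FPKM with PTP2 and 4.24 and 4.35 with SCR. The mean was 5.58-fold lower, the largest ratio among the 26 members with a mean of at least 1 FPKM in the higher group (log2 fold change -1.58, SE 0.051, adjusted p = 0.000364), and with a pseudocount of 0.1 the log2 fold change was -2.34. Its relative ITGA9 did not exceed 0.06 FPKM.

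Of the 7 leukocyte integrin genes, 5 were nearly absent. ITGAL, ITGAM, ITGAD, ITGB2 and ITGB7 did not exceed 0.28 FPKM, about 24 reads at most, and ITGB2, the beta subunit that ITGAL, ITGAM, ITGAX and ITGAD all need, was listed at 0 in 3 libraries and at 0.10 FPKM in PTP2 replicate 2. ITGAD was at 0.28 and 0.26 FPKM with PTP2 and at 0.09 in both SCR libraries (log2 fold change 0.22, SE 0.029, adjusted p = 0.00596), a rise resting on about 18 and 19 reads against 6 and 7. ITGAX, the alpha-x subunit of dendritic cells and macrophages, had 1.87 and 1.84 FPKM with PTP2 and 0.76 and 0.74 with SCR, and rose without overlap (log2 fold change 0.71, SE 0.029, adjusted p = 0.000484). ITGAE, the alpha-e subunit of lymphocytes in epithelium, had 2.77 and 2.93 FPKM with PTP2 and 3.88 and 4.23 with SCR. It fell (log2 fold change -0.39, SE 0.051, adjusted p = 0.00571), although not without PTP2 replicate 1 (adjusted p = 0.0801), PTP2 replicate 2 (0.0669) or SCR replicate 2 (0.0542). Of the 10 leukocyte markers examined, 7 had a value, and their summed level was 6.26 to 7.18 FPKM with PTP2 and 7.66 to 7.89 with SCR. Among them LYZ (1.67 to 2.93) and CSF1R (1.96 to 3.17) passed 1 FPKM, and 1 of the 7 rose and 2 fell. LAPTM5 rose (0.59 and 0.43 FPKM with PTP2, 0.26 and 0.28 with SCR), CSF1R and CD14 (0.22 and 0.35 against 0.89 and 0.80) fell, and PTPRC, at 0.82 and 0.86 against 0.40 and 0.73, did not pass the test. Of the 10 endothelial markers, PECAM1 (1.21 and 1.26 FPKM with PTP2, 2.39 and 2.50 with SCR) and TEK (1.08 at most) passed 1 FPKM, 3 rose and 2 fell, and the summed level was 4.03 to 4.57 with PTP2 and 4.72 to 4.77 with SCR. Thus 3 of the 7 leukocyte and 5 of the 10 endothelial markers were called, beside 57.9% of all genes. ITGAM, ITGAX and ITGAD follow each other on chromosome 16 within gaps of 22.2 and 10.3 kb. The part of other cell types in the change of ITGAX or ITGAE was not tested.

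Among the beta subunits, ITGB1, the common partner of the alpha subunits of adherent cells, had 218.2 and 221.1 FPKM with PTP2 and 348.2 and 354.1 with SCR. It fell by less than ITGA3 and ITGA5 did (log2 fold change -0.67, SE 0.03, adjusted p = 0.000546, limma). The level of ITGA3 relative to ITGB1 was 0.732 and 0.751 with PTP2 and 1.55 and 1.5 with SCR, and that of ITGA5 relative to ITGB1 was 0.728 and 0.721 against 1.00 and 0.968. The beta partners of ITGAV moved in opposite directions. ITGB3, the beta-3 subunit of the vitronectin receptor, had 65.3 and 71.5 FPKM with PTP2 and 47.7 and 49.7 with SCR. It rose (log2 fold change 0.48, SE 0.059, adjusted p = 0.00486), although not without SCR replicate 1 (adjusted p = 0.0892) or SCR replicate 2 (0.0766). ITGB5, the beta-5 subunit, had 22.8 and 23.2 FPKM with PTP2 and 51.1 and 48.3 with SCR (log2 fold change -1.08, SE 0.041, adjusted p = 0.000427). ITGB3 relative to ITGB5 was 0.934 and 1.03 with SCR, so neither was the higher one beyond the spread, and 2.86 and 3.09 with PTP2. ITGB8, which with ITGAV takes part in activating latent TGF-beta, had 2.15 and 2.30 FPKM with PTP2 and 4.61 and 4.83 with SCR (log2 fold change -0.83, SE 0.042, adjusted p = 0.000678). ITGB6, the epithelial partner of ITGAV, was listed at 0 in both PTP2 libraries and at 0.02 and 0.05 FPKM in the SCR libraries. ITGBL1 had 8.76 and 7.83 FPKM with PTP2 and 1.44 and 1.60 with SCR. It was 5.46-fold higher, the largest rise among the 39 members (log2 fold change 1.88, SE 0.069, adjusted p = 0.00041).

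**Figure D2:**
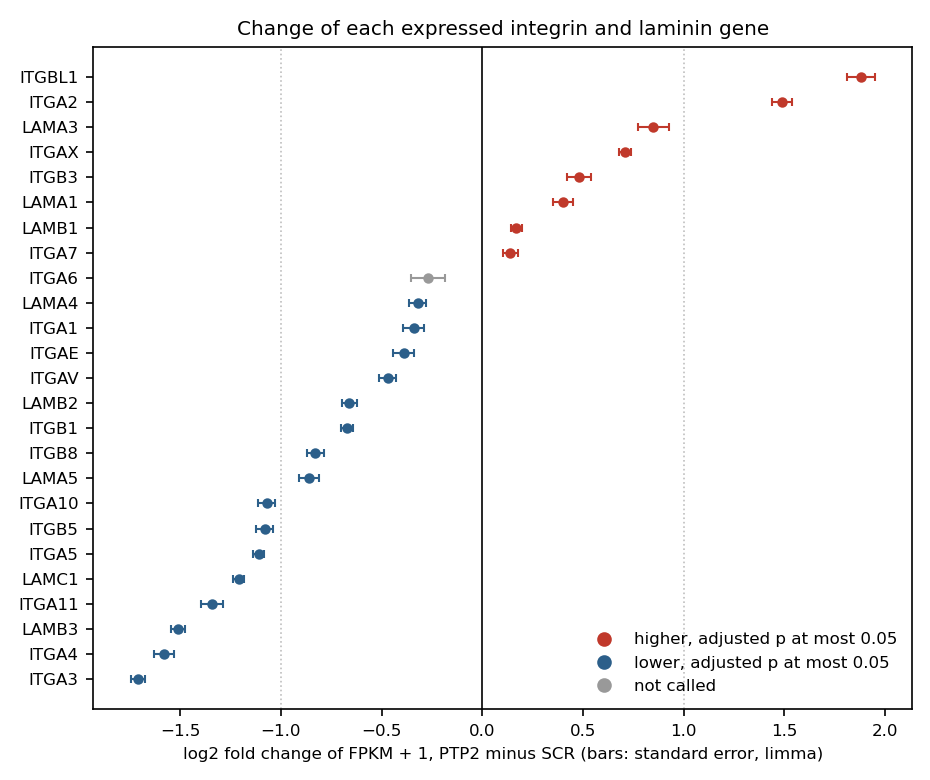
Log2 fold change of FPKM + 1 (PTP2 minus SCR) of 25 of the 26 members with a mean of at least 1 FPKM in the higher group, ordered by size, with bars for the standard error from limma and dotted lines at a fold change of 2. ITGBL1 (1.88) and ITGA2 (1.49) lie at the higher end, ITGA3 (-1.71) and ITGA4 (-1.58) at the lower end, and ITGA6 (grey) did not pass the test.

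Of the 5 laminin alpha chains, 2 rose, 2 fell and 1 did not pass the test. Over all genes 57.9% passed, and 74.8% of those with a mean of at least 1 FPKM in the higher group. LAMA4, the alpha-4 chain of vessel and mesenchymal laminins, was the most abundant of these chains. It had 11.1 and 10.8 FPKM with PTP2 and 14.4 and 13.6 with SCR. It fell (log2 fold change -0.32, SE 0.042, adjusted p = 0.00571, limma), although not without PTP2 replicate 1 (adjusted p = 0.0643) or PTP2 replicate 2 (0.0738). LAMA5, the alpha-5 chain of laminin-511 and laminin-521, had 3.72 and 4.01 FPKM with PTP2 and 8.02 and 7.65 with SCR (log2 fold change -0.86, SE 0.048, adjusted p = 0.00077). LAMA4 relative to LAMA5 was 2.99 and 2.70 with PTP2 and 1.79 and 1.77 with SCR. LAMA3, the alpha-3 chain of the epithelial laminin-332, had 1.90 and 1.52 FPKM with PTP2 and 0.50 and 0.49 with SCR. It was 3.45-fold higher without overlap (log2 fold change 0.85, SE 0.079, adjusted p = 0.00237), but the call was lost without SCR replicate 1 (adjusted p = 0.0712) or SCR replicate 2 (0.071). LAMA1, the alpha-1 chain of embryonic basement membranes, had 2.17 and 2.21 FPKM with PTP2 and 1.51 and 1.33 with SCR. It rose (log2 fold change 0.40, SE 0.049, adjusted p = 0.00479), although not without PTP2 replicate 1 (adjusted p = 0.0751) or PTP2 replicate 2 (0.0792). LAMA2, the alpha-2 chain of muscle laminin, was at 0.36 to 0.42 FPKM in all 4 libraries (log2 fold change -0.04, adjusted p = 0.432).

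The beta chains differed in direction. LAMB1, the beta-1 chain, had 43.3 and 43.3 FPKM with PTP2 and 38.2 and 38.7 with SCR. It rose slightly (log2 fold change 0.17, SE 0.029, adjusted p = 0.0121), and the call was lost without PTP2 replicate 1 (adjusted p = 0.0519) or PTP2 replicate 2 (0.053) and with quantile normalization (log2 fold change 0.10, adjusted p = 0.0605) or median-ratio scaling (0.09, 0.059). LAMB2, the beta-2 chain of laminin-421 and laminin-521, had 18.5 and 19.3 FPKM with PTP2 and 30.6 and 30.0 with SCR (log2 fold change -0.66, SE 0.036, adjusted p = 0.000777). LAMB3, the beta-3 chain found only in laminin-332 and its relatives, had 8.62 and 8.92 FPKM with PTP2 and 26.6 and 27.2 with SCR. It was 3.07-fold lower (log2 fold change -1.51, SE 0.034, adjusted p = 0.000245), the largest fall of any laminin chain. LAMB4 was at 0.22 to 0.60 FPKM with overlapping groups (log2 fold change 0.17, adjusted p = 0.325).

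LAMC1, the gamma-1 chain of most laminins, had 28.2 and 28.4 FPKM with PTP2 and 66.2 and 67.0 with SCR. It was 2.36-fold lower (log2 fold change -1.21, SE 0.029, adjusted p = 0.000261, limma). It lies on the plus strand of chromosome 1 (GRCh38), from 183023460 to 183145592. LAMC3 was listed at 0.01 FPKM in SCR replicate 1 and at 0 in the other libraries.

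The alpha and beta chains of laminin-332 therefore moved in opposite directions. LAMA3 rose from under 1 FPKM while LAMB3 fell from 26.9 ± 0.453 FPKM (SD, n = 2) to 8.77 ± 0.212 (SD, n = 2). LAMB3 was still the more abundant of the pair in PTP2 cells. LAMA3 relative to LAMB3 was 0.0188 and 0.0180 in the SCR libraries and 0.220 and 0.170 in the PTP2 libraries.

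**Figure D3:**
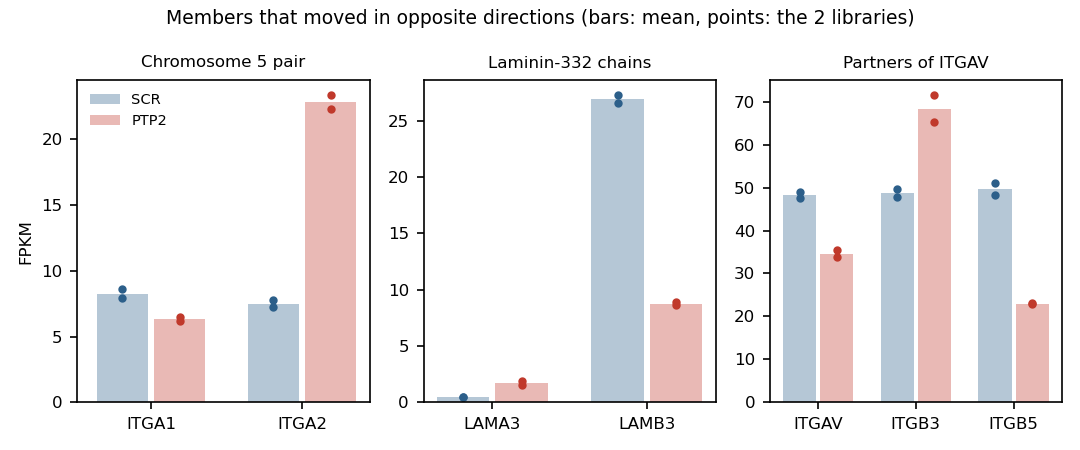
FPKM of members that moved in opposite directions, with bars for the group mean from 0 and a point for each of the 2 libraries of SCR (blue) and PTP2 (red). ITGA2 is above ITGA1 only with PTP2, LAMB3 stays above LAMA3 in both groups, and ITGB3 and ITGB5 are level with SCR and apart with PTP2.

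Stretches before the start sites of LAMA3 and LAMB3 are shown because they are the only windows of members that hold TGANTCA, the letters bound by the AP-1 factors, which are marked in capitals. The LAMA3 stretches precede the start at 23873020 (GRCh38.p14), which lies inside the gene, and fall within an annotated exon of it, and the LAMB3 stretch precedes the most downstream of its 3 RefSeq starts, at 209651374.
LAMA3, chr18:23872885-23872911, plus strand: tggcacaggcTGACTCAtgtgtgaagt
LAMA3, chr18:23872941-23872967, plus strand: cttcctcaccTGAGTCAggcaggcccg
LAMB3, chr1:209651425-209651451, minus strand: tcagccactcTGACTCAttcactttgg
The letters begin at -125 and -69 before the LAMA3 start and at -67 before the LAMB3 start. LAMA3 rose and LAMB3 fell, and the part of these letters in either change was not tested. Windows with TGANTCA made up 6.57% of all 35116 windows and 2 of the 34 windows of members (5.88%). The letters TATAAA were found in 10.7% of all windows and 2 of 34 (5.88%), and the TEAD letters GGAATG in 11.9% and 4 of 34 (11.8%). The FPKM values are per gene and do not show which start was used.

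The make-up of the integrin subunits and of the laminin alpha and beta chains was compared as shares of its summed FPKM within a library. The summed level of the 18 integrin alpha subunits was 422.8 ± 7.64 FPKM (SD, n = 2) with PTP2 and 987.5 ± 9.28 with SCR, 2.34-fold lower. That of the 8 beta subunits was 313.5 ± 6.72 against 454.8 ± 3.71, 1.45-fold lower. Laminin beta chains summed to 71.4 ± 0.955 FPKM with PTP2 and 95.98 ± 0.629 with SCR, 1.34-fold lower, and laminin alpha chains to 19.1 ± 0.255 against 24.1 ± 0.99, 1.26-fold lower.

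Within the alpha subunits, ITGA3 made up 38.5% ± 0.351 (SD, n = 2) with PTP2 and 54.1% ± 0.128 with SCR. ITGA5, which fell in level, had a slightly larger share with PTP2 (37.7% ± 0.57) than with SCR (35% ± 0.0849), and ITGA3 and ITGA5 were nearly level with PTP2 (ratio 1.01 and 1.04, against 1.55 in both SCR libraries). The shares of ITGA2 (5.40% against 0.760%), ITGA7 (6.52% against 2.53%) and ITGAV (8.19% against 4.89%) were larger with PTP2. Within the beta subunits, ITGB1 held 70.1% ± 0.858 with PTP2 and 77.2% ± 0.284 with SCR, and ITGB3 held 21.8% ± 0.922 against 10.7% ± 0.227. The share of ITGB5 was 7.33% ± 0.0738 against 10.9% ± 0.517.

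Among laminin beta chains, LAMB1 held 60.6% ± 0.73 (SD, n = 2) with PTP2 and 40.0% ± 0.0912 with SCR. The shares of LAMB3 (12.3% ± 0.133 against 28.0% ± 0.288) and LAMB2 (26.4% ± 0.459 against 31.6% ± 0.583) were smaller with PTP2. The share of LAMA4 in the alpha chains was 57.5% ± 0.382 and 57.9% ± 0.0614, a difference of -0.465 percentage points, close to the spread between the PTP2 replicates. LAMA5 held 20.2% ± 1.34 against 32.5% ± 0.249, LAMA1 11.5% ± 0.301 against 5.88% ± 0.286 and LAMA3 8.94% ± 1.29 against 2.05% ± 0.055. The libraries of the groups did not overlap in any share of this and the preceding paragraph (exact permutation test, two-sided, p = 0.33 each).

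**Figure D4:**
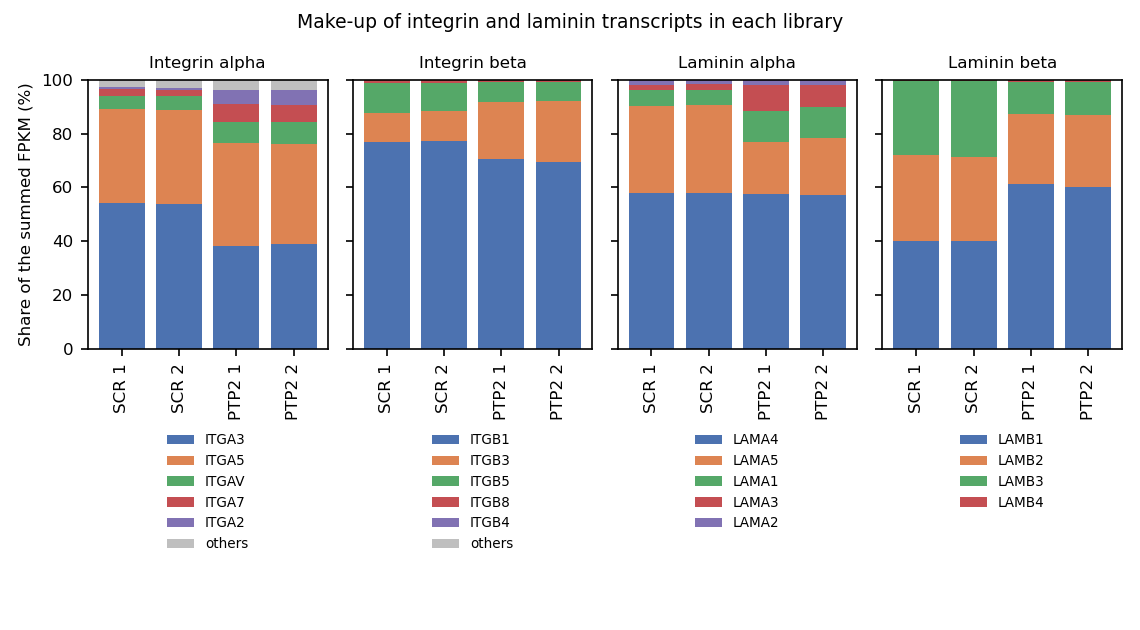
Shares (%) of the summed FPKM of integrin alpha, integrin beta, laminin alpha and laminin beta genes in each of the 2 SCR and 2 PTP2 libraries, with the 5 largest genes of each class in colour and the others in grey. The replicates look alike, the ITGA3 share is smaller with PTP2 (38.5% against 54.1%) and the LAMB1 share larger (60.6% against 40.0%).

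The genes around these receptors and ligands were described from lists of their known partners. Beside each list stands the share called over all genes, 57.9%. Among genes with a mean of at least 1 FPKM in the higher group that share was 74.8%. Of 30 integrin adaptors and focal adhesion genes, 16 fell and 8 rose (24 called of 30, beside 57.9% of all genes), with a median log2 fold change of -0.33. The largest falls were NEDD9, a scaffold of the p130Cas family (0.33 and 0.38 FPKM with PTP2, 3.65 and 3.74 with SCR, log2 fold change -1.79), and TNS2, a tensin (4.41 and 5.09 against 15.4 and 15.2, -1.51). The largest rises were PTK2B, the kinase PYK2 related to focal adhesion kinase (5.32 and 4.69 against 1.04 and 1.39, 1.44), and FERMT3, the kindlin of blood cells (18.2 and 18.1 against 7.73 and 7.22, 1.18). TLN1, ILK and PXN, which encode talin, integrin-linked kinase and paxillin, were among the 6 that did not pass.

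Of 21 integrin ligands, 14 fell and 1 rose (71.4% called, beside 57.9% of all genes, of which 27.1% fell and 30.8% rose), with a median of -0.46. COL1A1, a collagen chain and ligand of the collagen-binding integrins, had 31.3 and 33.2 FPKM with PTP2 and 525.0 and 515.1 with SCR (log2 fold change -3.97, adjusted p = 0.000133, limma). FN1, fibronectin and the ligand of ITGA5, had 51.6 and 51.5 against 417.4 and 424.7 (-3.00, adjusted p = 0.000124). The ligand that rose was ICAM1, a partner of leukocyte integrins, from 1.48 and 1.21 FPKM to 2.00 and 1.89 (0.33, adjusted p = 0.0218). VTN, NPNT, NOV, VCAM1, POSTN and IBSP did not pass.

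Of the 14 basement membrane partners of laminin, 13 had a value, of which 5 fell and 3 rose (61.5% called, close to the 57.9% of all genes), with a median of -0.05. HSPG2, the proteoglycan perlecan, had 1.99 and 1.77 FPKM with PTP2 and 18.1 and 18.0 with SCR (log2 fold change -2.72, adjusted p = 0.000192, limma). NID2, a nidogen that links laminin to collagen IV, had 18.7 and 19.2 against 84.7 and 83.5 (-2.09, adjusted p = 0.000158), while its relative NID1 did not pass the test. COL4A2, a collagen IV chain, was at 1.58 and 1.18 against 0.68 and 0.81 (0.44, adjusted p = 0.0269). Among 8 other laminin receptor genes, 5 fell and 1 rose (75.0% called, beside 57.9% of all genes, median -0.51). DAG1, dystroglycan, had 17.0 and 16.9 FPKM with PTP2 and 29.1 and 29.1 with SCR (-0.75, adjusted p = 0.000424), and SGCD, a sarcoglycan of the same complex, had 1.57 and 1.52 against 5.25 and 4.37 (-1.19). RPSA, a ribosomal protein also described as a laminin receptor, rose from 520.5 and 513.2 to 910.1 and 867.3 (0.78, adjusted p = 0.000634), and reads of its near-identical pseudogenes may be counted with it.

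Of 10 membrane proteins that associate with integrins, 6 rose and 3 fell (9 called of 10, median 0.21), beside 57.9% called over all genes and 74.8% over genes with a mean of at least 1 FPKM in the higher group, as all 10 had. SLC3A2, the CD98 heavy chain that binds integrin beta tails, had 115.2 and 109.5 FPKM with PTP2 and 62.1 and 62.4 with SCR (log2 fold change 0.84, adjusted p = 0.000565, limma). PLAUR, the urokinase receptor, had 107.4 and 104.1 against 68.0 and 64.3 (0.67, adjusted p = 0.00106). CD81, a tetraspanin, fell to 25.4 and 23.7 from 82.2 and 77.3 (-1.66, adjusted p = 0.000372), and CAV1, caveolin-1, fell to 343.7 and 346.0 from 624.2 and 612.8 (-0.84, adjusted p = 0.000399). The groups did not overlap in any of the partner genes given here with values, but these were picked from called genes. Over all genes 75.6% did not overlap, and 89.3% of those with a mean of at least 1 FPKM in the higher group.

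Several members share exon sequence with other annotated genes in GENCODE 29, and the use of strand in counting is not given in the sources used here, so reads of such a pair are not separated. Exons of FGF14, on the opposite strand, overlap those of ITGBL1 over 4354 bases, and FGF14 itself was at 0.83 and 0.77 FPKM with PTP2 and 0.10 and 0.04 with SCR, lower than ITGBL1 in each library and higher with PTP2, as ITGBL1 was (log2 fold change 0.75, adjusted p = 0.000873). A readthrough gene on the same strand, AC068234.1, shares 2266 exon bases with ITGB3. PELO, which lies within ITGA1 and shares 475 exon bases with it, was at 29.7 and 30.9 FPKM with PTP2 and 20.3 and 19.8 with SCR, higher with PTP2 while ITGA1 was lower. GSG2, within ITGAE and on the opposite strand, overlaps it over 427 bases under its newer name HASPIN and was at 3.26 and 3.72 FPKM with PTP2 and 2.12 and 2.06 with SCR, again opposite to ITGAE. The part of these overlaps in the values was not tested.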

How the data were processed

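Libraries of U87 RNA were read from 1 end (50 bases) on the BGISEQ-500 platform. The authors deposited 1 FPKM value per gene and library, rounded to 2 decimals and with replicates not pooled. The submitters' processing notes name HISAT2 (version 2.1.0) and hg19, whereas gene positions in the table lie on GRCh38 (93.0% of 19257 matched genes start within 10000 bases of the RefSeq start). The counting program is not given in the sources used here. The 66380 values compared were identical in both deposited tables. Columns with the authors' own fold changes and p-values were not used. No counts were given, so depth was estimated from the steps between low FPKM values.

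The log2(FPKM + 1) values of all 16595 genes were fitted in limma 3.58.1 under R 4.3.3, with group as the only term and default eBayes options (3.72 degrees of freedom per gene). The fit was tested on simulated data. Shares and ratios were compared by exact permutation tests. Libraries were grouped by title. Values were printed for members with a mean of at least 1 FPKM in the higher group, others by range, and from each partner list the 2 largest rises and falls among called genes above that level; other genes named (low members, genes that did not pass, markers and overlapping genes) were chosen after their values were seen. The members and lists were chosen with earlier results of these data known. Alternatives were a pseudocount of 0.1, a minimum of 1 FPKM in 2 libraries, a replicate block, quantile normalization, median-ratio scaling, an eBayes trend, removal of trends on transcript length, and leaving out each library; removal of length and GC trends together was added after seeing the data. Of 10 epithelial markers 9 had a value, 0 passed the test (beside 57.9% of all genes) and CLDN4 was the highest (1.11 FPKM). The values of 1 member are not reported here, although it is counted among the members.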

Additional observations from a re-analysis of the deposited data

How the results depend on the processing

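Of the 26 members above 1 FPKM, 25 were called (96.2%), beside 74.8% of all genes with a mean of at least 1 FPKM in the higher group. Of these 25 members, 17 were called under all 12 alternatives, and none of the 26 changed direction under any of them. How many of all genes were called under every alternative was not counted. The count of differential genes was 0 over the whole table, and 0 among members, with a pseudocount of 0.1, with the replicate block and without any 1 library, in limma, where 8700 to 10185 genes and 25 to 28 members had an unadjusted p under 0.05. At an adjusted p of 0.05, between 3275 and 3375 genes rose and 2884 to 2957 fell with 1 library left out, since fewer samples were fitted. The median log2 fold change of the members was -0.29 with a pseudocount of 0.1, -0.43 over the 26 members left by a minimum of 1 FPKM, -0.05 with median-ratio scaling, -0.06 with the length trend removed, -0.07 with the length and GC trends removed, and -0.06 to -0.04 with 1 library left out. Directions changed only in members that were near 0 and uncalled in the main fit. These were ITGA8 (0.00 without PTP2 replicate 1), LAMA2 (0.02 with quantile normalization, 0.00 with the length trend removed), ITGA2B and LAMC3. ITGA2B was at 0.00 with a pseudocount of 0.1 or quantile normalization, 0.08 with the length and GC trends removed, and -0.06 to 0.05 with 1 library left out. LAMC3 was at 0.14 with the length and GC trends removed and passed the test there (adjusted p = 0.0237, limma). Its FPKM was nonetheless 0 in both PTP2 libraries, so that alternative can call a gene higher in a group where it is listed at 0. The cause of these changes was not tested. The same-numbered libraries of the groups share only a number, with a correlation of their deviations of 0.0635 over 11272 genes, and with the replicate block 4888 genes rose and 4251 fell at an adjusted p of 0.05, among them 9 and 17 members. Members under 0.3 FPKM rest on at most about 24 reads a library.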
